A study of Mus musculus with 6 samples.

Results

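Collagen chain genes were followed in ovaries of mice that carried a tumor and in control ovaries. The genes were chosen by symbol alone, as every gene of the deposited table whose symbol is exactly Col, a number, the letter a and a number, and 44 of the 19423 genes in the table met this rule. They were grouped by the kind of structure their chains build, as 11 genes of fibrillar types, 8 of basement membrane types, which here include types XV and XVIII, and 25 of other types. RNA was sequenced from 3 libraries labelled Tumor and 3 labelled Control, all ovary on day 80 and all of the strain background balb/c-nude, athymic mice that lack T cells and accept human cells. Tumor mice had been injected under the skin with cells named MBA-MD-231 in the labels; the treatment label counts the last digits of that name upward over the 3 mice while the cell line label does not change. Control mice carry no treatment label, and the series design calls them female controls. The labels give no age, no stage of the estrous cycle and no pooling, and they do not state whether control mice received an injection, so that an effect of the injection and of the tumor cannot be told apart.

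Collagens are proteins of 3 chains wound into a triple helix. Fibrillar types such as I, III and V assemble into the fibers of connective tissue, type IV forms the sheet-like network of basement membranes, and types such as VI, XII and XVI link or decorate these structures. In the ovary, fibrillar collagen fills the stroma and the theca and the tunica around the organ, while basement membranes surround each follicle and each vessel, and both are remodelled as follicles grow, rupture and turn into corpora lutea.

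Libraries held between 18278614 and 18482073 estimated counts in Tumor and between 18804610 and 19238900 in Control. Levels are given in 2 scales. TPM is a share of all transcripts, scaled by gene length, and allows levels of different genes to be compared, and CPM is a share of all counts, with TMM library factors, and is the scale closest to the tests. Fold changes come from edgeR's quasi-likelihood test on the counts, are written as log2FC, the log2 of Tumor over Control, with a standard error (SE), and passed at a Benjamini-Hochberg adjusted p under 0.05 over 15787 genes. The scales differ by a shift: the median gene had a log2 ratio of 0.131 between group means in TPM, against -0.02 in CPM, so that TPM understates a fall. In bulk tissue, fewer cells of a type and less RNA per cell cannot be told apart, and the p-values measure the spread between samples that the labels list separately.

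Of the 44 genes, 40 had enough counts to be tested, with at least 10 counts in every library. Several collagen chain genes were lower in Tumor ovaries: 9 of the 40 genes fell, or 22.5%, where 3.91% of all tested genes fell and 7.71% changed in either direction. The 9 were Col1a1, Col3a1, Col5a2 and Col5a3 among fibrillar types, Col15a1 and Col18a1 among basement membrane types, and Col6a5, Col16a1 and Col20a1 among other types. None rose in edgeR's test, where 3.80% of all genes rose. At an unadjusted p under 0.05, 16 were lower and 7 higher, where the shares over all genes were 15.2% and 15.8%. DESeq2 called 2 of the 40 genes higher, Col6a4 and Col28a1, and 14 lower. Over all 15764 genes with a DESeq2 p-value, it called 1555 higher and 1502 lower. The median log2FC of the 40 genes was -0.26, with a range of -1.90 to 1.54, against a median of -0.02 over all genes tested. Fold changes lay below 0 for 26 genes and above 0 for 14. Of the 26, Col11a2 and Col12a1 turned to slightly positive values in limma-trend on log2 TPM. Col9a3 and Col11a2 did so after a correction for GC content, at 0.078 and 0.106. In CPM the groups did not overlap for 19 genes that were lower in Tumor, or 47.5%, and for 5 that were higher, or 12.5%, where the shares over all genes were 18.4% and 19.8%.

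**Figure D1:**
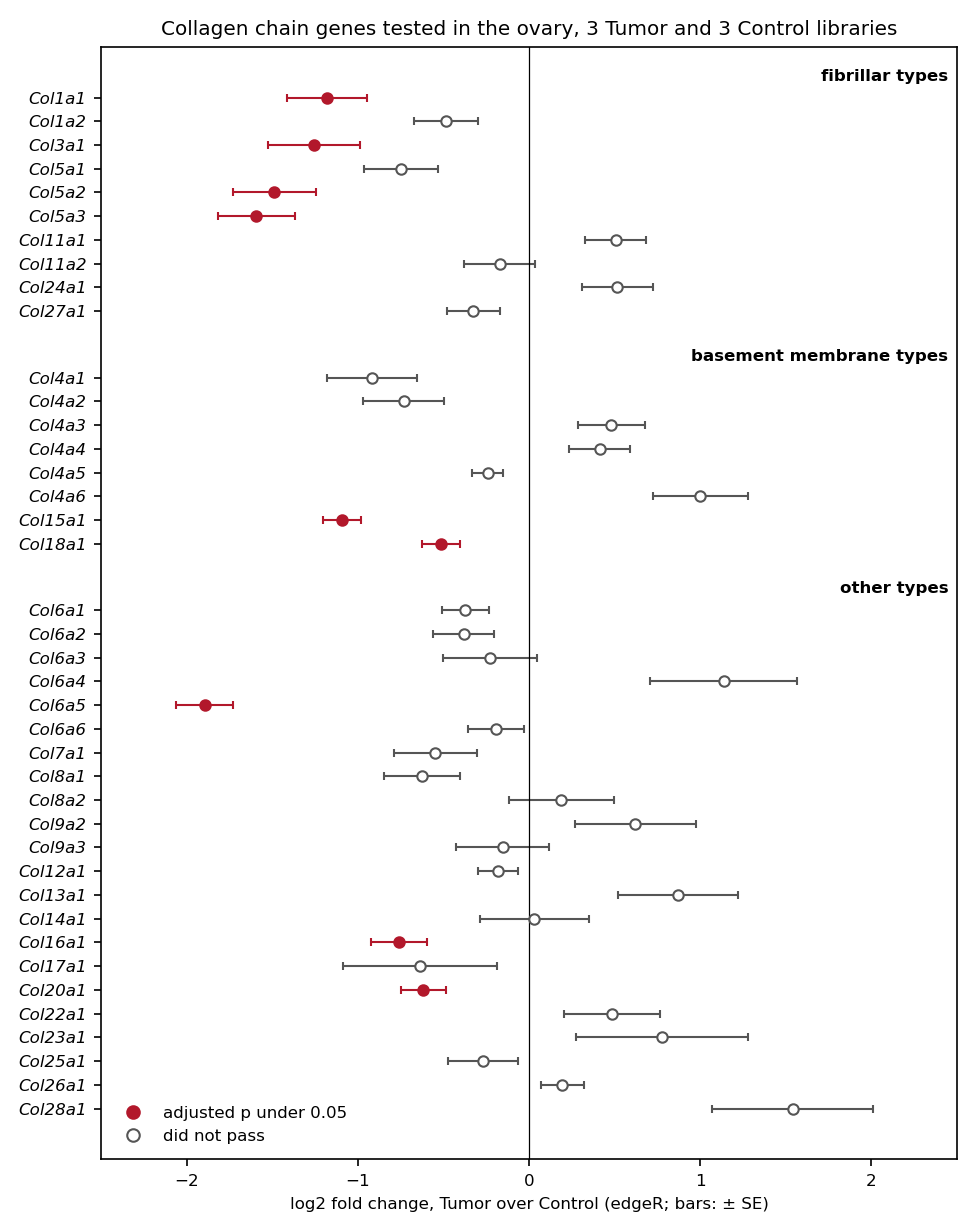
Log2 fold change of Tumor over Control for the 40 tested collagen chain genes, by structural class, with bars of 1 SE from edgeR's quasi-likelihood test. Red filled points are the 9 genes with an adjusted p under 0.05, all left of 0, and open points are the 31 that did not pass.

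The number of calls rested on single libraries, over all genes as well as over the collagen chain genes. With Control replicate 1, Control replicate 3, Tumor replicate 2 or Tumor replicate 3 left out, edgeR called no collagen gene in either direction, with 11, 11, 17 and 12 lower and 1, 1, 2 and 5 higher at an unadjusted p under 0.05, while 10 were lower and 4 higher without Control replicate 2 and 9 lower and 1 higher without Tumor replicate 1, the 9 genes among them both times. The 9 genes had negative fold changes under every one of these settings. Over all genes, edgeR called none without Control replicate 1 or Tumor replicate 3. It called 5 lower and none higher without Control replicate 3, and 2 lower and 1 higher without Tumor replicate 2. Without Control replicate 2, 1086 of 16011 genes were lower and 1188 higher. Without Tumor replicate 1, 1534 of 15937 were lower and 1071 higher.

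The 4 genes that were not tested had between 0 and 12 counts in each library. They were Col2a1 and Col9a1, chains of cartilage fibrils, Col10a1 of growth plate cartilage, and Col19a1, a rare fibril-associated chain. A count of 3, taken as the limit that a count of 0 allows, was between 0.156 and 0.164 CPM in these libraries, which covers counting error only, and no difference was detectable at this depth.

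Summed over its members, fibrillar collagen held the most transcripts of the 3 classes. The 11 fibrillar genes summed to 815, 1240.2 and 1017 TPM in Tumor libraries 1, 2 and 3, against 1824, 1432 and 1889 TPM in Control libraries 1, 2 and 3. The 8 basement membrane genes summed to 464, 659 and 616 TPM in Tumor, against 954, 730.5 and 989.7 TPM in Control. In both classes all Tumor libraries lay below all Control libraries, with Control replicate 2 the lowest control. The 25 genes of other types summed to 744, 1041 and 834 TPM in Tumor, against 872, 1053 and 847 TPM in Control, and there the groups overlapped. Fibrillar genes made up 41.2% ± 0.961 of all collagen TPM in Tumor and 48.4% ± 3.37 in Control (SD, n = 3 each).

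**Figure D2:**
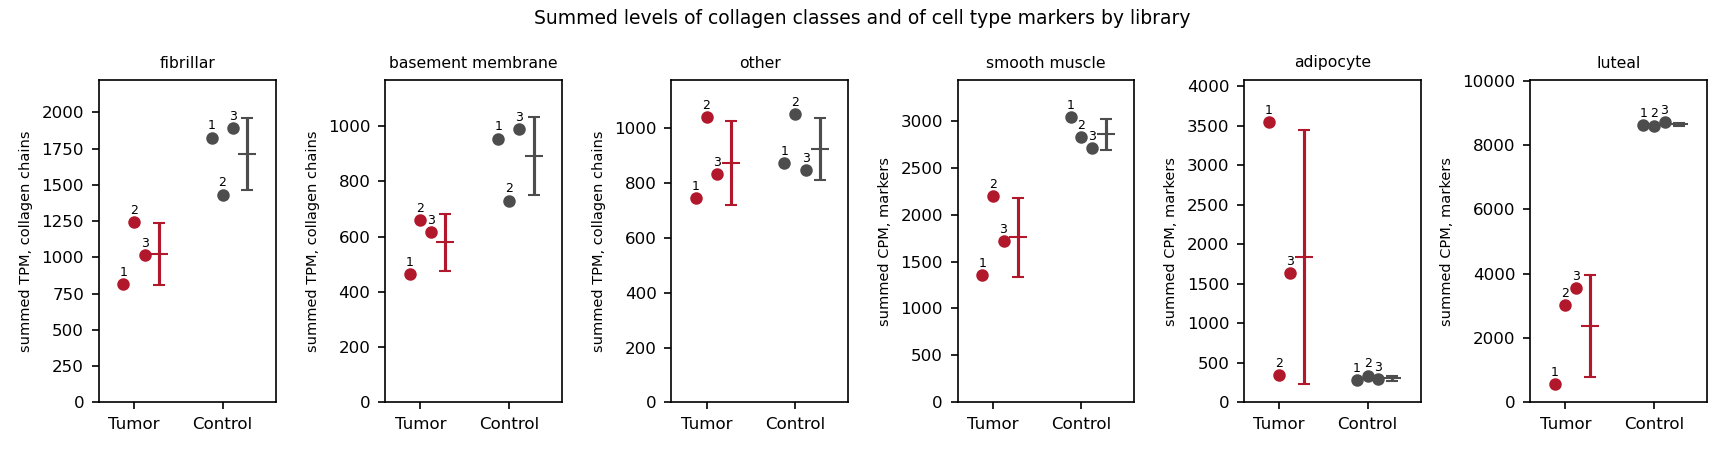
Summed levels in each library, marked with its replicate number, for the 3 collagen classes (TPM, left 3 panels) and for markers of smooth muscle, adipocytes and luteal cells (CPM, right 3 panels), with mean ± SD over 3 libraries. Fibrillar and basement membrane sums are lower in every Tumor library, the smooth muscle and luteal sums are too, and the adipocyte sum is far above the controls in Tumor replicates 1 and 3.

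Summed markers of smooth muscle, luteal cells and oocytes separated the groups, and those of fibroblasts and adipocytes did so by narrow margins. The granulosa, endothelial, oviduct, surface epithelium and macrophage sums overlapped. Of 6 smooth muscle genes, Tagln, Cnn1, Des and Actg2 fell and 2 did not pass, and the list summed to 1357 to 2193 CPM in Tumor and 2704 to 3036 CPM in Control. Of 6 luteal genes, Akr1c18 and Ptgfr fell and 4 did not pass, with sums of 558 to 3547 CPM in Tumor and 8596 to 8699 CPM in Control. Most of each sum was Cyp11a1, with 428, 2500 and 2734 CPM in Tumor and 7326, 6672 and 7637 CPM in Control. Cyp11a1 did not pass in edgeR (adjusted p = 0.112). Lhcgr and Parm1 overlapped between the groups, and the other luteal genes did not. None of 5 general stromal fibroblast genes and none of 5 endothelial genes passed edgeR's test, with 2 lower in each list and 1 higher in the endothelial list at an unadjusted p under 0.05. The fibroblast sums were 316 to 424 CPM in Tumor and 424.1 to 564 CPM in Control, and the endothelial sums were 321 to 372 CPM in Tumor and 371.5 to 393 CPM in Control. Of 5 oocyte genes, Gdf9, Bmp15 and Nlrp5 rose, with sums of 407 to 532 CPM in Tumor and 262 to 354 CPM in Control, and of 6 granulosa genes, Esr2 rose, with sums of 2515 to 4354 CPM in Tumor and 3168 to 4075 CPM in Control; both lists mark the tissue as ovary. Adipocyte genes, of which none of 7 tested passed in edgeR and 5 were higher at an unadjusted p under 0.05, summed to 3546, 347 and 1636 CPM in Tumor libraries 1, 2 and 3 and to between 279.9 and 339 CPM in Control, with the brown fat gene Ucp1 at 0 or 1 count. Oviduct genes summed to 62.8 to 1881 CPM in Tumor and 459.6 to 2106 CPM in Control. None of 6 oviduct, 6 surface epithelium and 4 macrophage genes passed in edgeR, with 0, 0 and 1 of them at an unadjusted p under 0.05. The part of smooth muscle, luteal, adipocyte or oviduct tissue in the collagen values was not tested.

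Type I and type III chains were the most abundant fibrillar collagens, and 2 of the 3 genes fell. Col1a1, the alpha 1 chain of type I collagen, had 125, 218 and 165 TPM in Tumor libraries 1, 2 and 3, against 355, 299 and 374 TPM in Control libraries 1, 2 and 3. Col3a1, the chain of type III collagen, a fibril of elastic and healing tissue, had 259.8, 394 and 338 TPM in Tumor, against 789.7, 497 and 817 TPM in Control. Neither gene's groups overlapped, and the lowest control was replicate 2 for both. The log2FC were -1.18 ± 0.23 (SE) for Col1a1 (adjusted p = 0.0407) and -1.25 ± 0.27 for Col3a1 (adjusted p = 0.0458). Col1a2, the alpha 2 chain that joins 2 alpha 1 chains in the type I trimer, had 305, 476 and 390.2 TPM in Tumor, against 496, 459 and 509.8 TPM in Control, and its groups overlapped in TPM but not in CPM. Its log2FC of -0.48 ± 0.19 (SE) did not pass (adjusted p = 0.138), and DESeq2 gave it an adjusted p of 0.0494. The call of Col3a1 ended after a correction for gene length, at -1.41 (adjusted p = 0.0568), and after one for GC content, at -1.16 (adjusted p = 0.0533).

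Ratios of these chains were formed within each library, where scaling of the library cancels. Col1a1 over Col1a2 was 0.408, 0.457 and 0.424 in Tumor and 0.717, 0.652 and 0.733 in Control, or 0.43 ± 0.025 and 0.701 ± 0.043 (SD, n = 3 each). Col3a1 over Col1a2 was 0.852, 0.828 and 0.866 in Tumor, against 1.593, 1.083 and 1.603 in Control. Both ratios separated the groups with an exact permutation p of 0.1, two-sided, the smallest that 3 against 3 can give, or 0.14 after adjustment over the 14 ratios computed. Col3a1 over Col1a1 overlapped, at 2.08, 1.81 and 2.04 in Tumor and 2.22, 1.66 and 2.19 in Control (exact permutation p of 0.9).

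**Figure D3:**
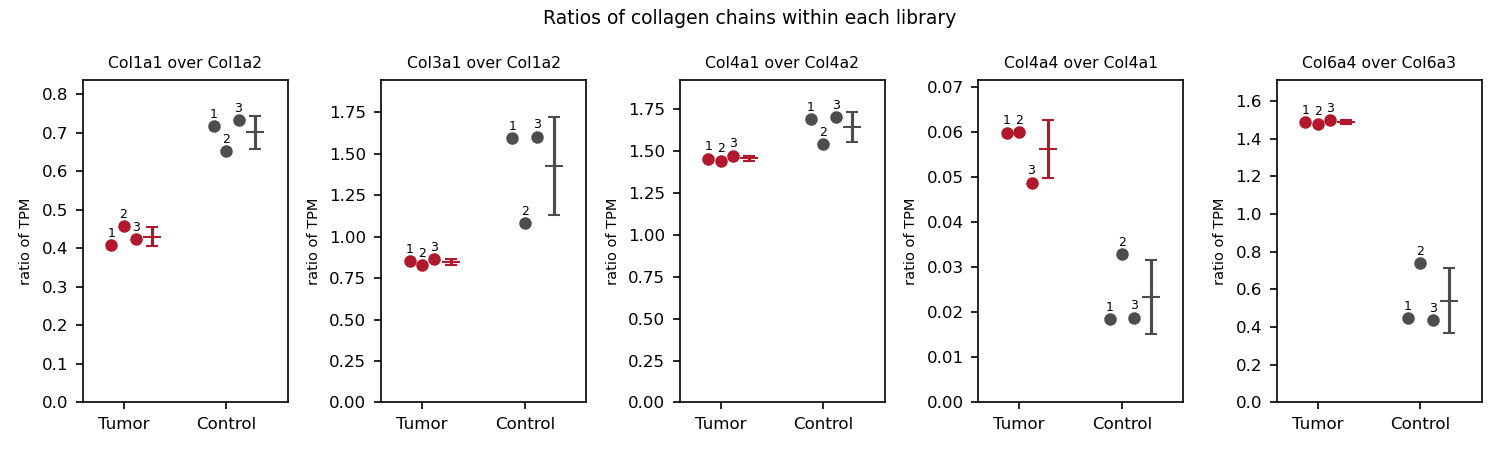
Ratios of TPM between collagen chains within each library, with replicate numbers and mean ± SD over 3 libraries. Col1a1 and Col3a1 per Col1a2 and Col4a1 per Col4a2 are lower in all 3 Tumor libraries, and Col4a4 per Col4a1 and Col6a4 per Col6a3 are higher in all 3.

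The promoters of Col1a2 and Col3a1 are shown because these abundant chains had fold changes of unlike size. Promoter windows of 250 bases before to 50 bases after a gene's start came from RefSeq on GRCm38.p6, and they matched 35 of the 44 genes, with 38 windows. Capitals mark matches to a CCAAT box (CCAAT or, on the other strand, ATTGG), a GC box (GGGCGG or CCGCCC) or a TATA box (TATAAA or TTTATA), searched on both strands, and no match shown overlaps another. The Col1a2 window is chr6:4505368-4505667 on the plus strand and the Col3a1 window chr1:45311288-45311587 on the plus strand.
Col1a2: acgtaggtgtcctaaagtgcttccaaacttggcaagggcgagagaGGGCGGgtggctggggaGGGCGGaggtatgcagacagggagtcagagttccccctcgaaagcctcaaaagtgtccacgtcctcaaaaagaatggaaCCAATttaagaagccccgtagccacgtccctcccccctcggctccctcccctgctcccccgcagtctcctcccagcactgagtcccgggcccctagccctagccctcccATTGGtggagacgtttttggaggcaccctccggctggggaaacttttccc
Col3a1: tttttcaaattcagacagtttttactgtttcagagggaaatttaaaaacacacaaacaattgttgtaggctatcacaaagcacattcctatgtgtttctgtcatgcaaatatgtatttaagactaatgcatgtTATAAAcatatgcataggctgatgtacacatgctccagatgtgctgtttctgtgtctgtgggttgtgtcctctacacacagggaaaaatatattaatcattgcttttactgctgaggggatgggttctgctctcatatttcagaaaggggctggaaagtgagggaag
The Col1a2 window held 4 matches, to CCAAT and GC boxes, and the Col3a1 window held 1, to a TATA box. Over the collagen windows, 13 of 38 (34.2%) held a CCAAT box, 23 (60.5%) a GC box and 5 (13.2%) a TATA box, against 37.4%, 35.7% and 13.6% of 32851 windows of all genes. The 8 windows of the 7 fallen genes with an entry held a CCAAT box in 3, a GC box in 4 and a TATA box in 1. A match is a description of letters and not a site of binding.

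Type V collagen, which sits inside type I fibrils and limits their width, was lower in its alpha 2 and alpha 3 chains. Col5a2 had 19.5, 25.8 and 20.8 TPM in Tumor, against 62.5, 39.0 and 63.1 TPM in Control. Col5a3, a chain of restricted expression, had 3.73, 2.43 and 2.25 TPM in Tumor, against 7.61, 8.79 and 6.46 TPM in Control. Their groups did not overlap, and the log2FC were -1.49 ± 0.24 (SE) for Col5a2 and -1.59 ± 0.22 for Col5a3 (adjusted p = 0.0366 and 0.0325). Col5a1, the chain common to type V trimers, had 31.3, 53.4 and 42.1 TPM in Tumor, against 65.4, 56.4 and 67.8 TPM in Control, with a log2FC of -0.75 ± 0.22 (SE) that did not pass in edgeR (adjusted p of 0.0785) and passed in DESeq2 (0.00745). Col5a1 over Col5a2 was 1.604, 2.07 and 2.03 in Tumor and 1.05, 1.45 and 1.075 in Control, groups that did not overlap (exact permutation p of 0.1, adjusted 0.14). Col5a3 over Col5a1 overlapped, at 0.119, 0.0455 and 0.0534 in Tumor and 0.116, 0.156 and 0.0953 in Control (exact permutation p of 0.3, adjusted 0.382). Col5a2 and Col3a1 are neighbours on chromosome 1, transcribed towards each other with a gap of 24.6 kb, Col3a1 at chr1:45311538-45349706 and Col5a2 at chr1:45374331-45503282 of GRCm38, and both fell.

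**Figure D4:**
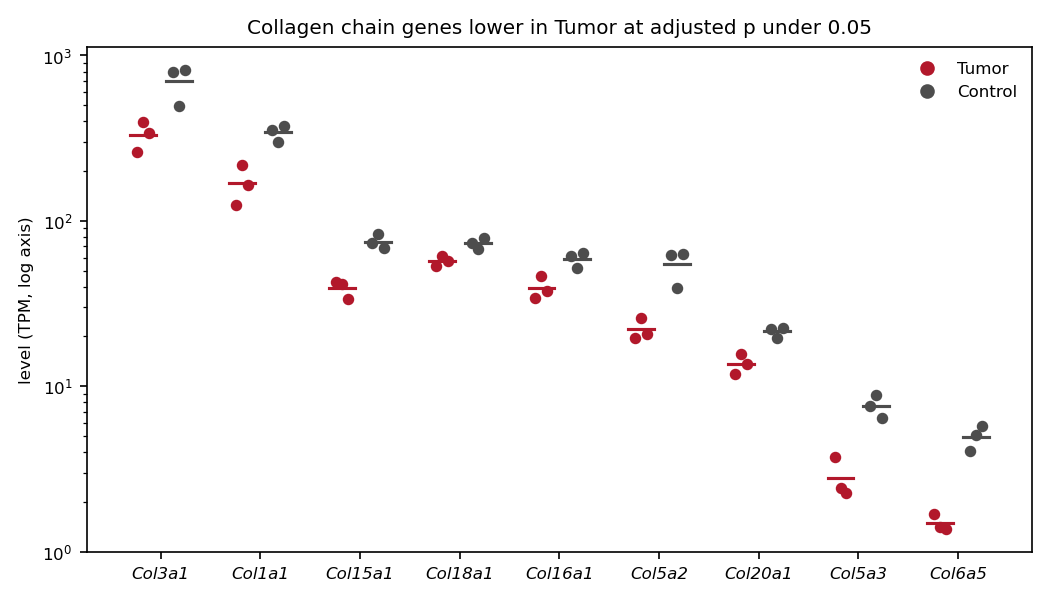
Levels in TPM (log axis) of the 9 collagen chain genes that fell, in each of 3 Tumor (red, left of each pair) and 3 Control (grey) libraries, with lines at the means. The groups do not overlap for any of the 9, and means in Control run between 4.94 TPM for Col6a5 and 701 TPM for Col3a1.

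The other fibrillar chains did not pass the test, and 2 of them had positive values. Col11a1, whose chain replaces type V chains in cartilage fibrils and is also made in soft tissue, had 37.2, 37.5 and 26.9 TPM in Tumor, against 18.1, 27.5 and 19.9 TPM in Control. Tumor replicate 3 lay below Control replicate 2, and the log2FC of 0.51 ± 0.18 (SE) had an adjusted p of 0.114. Without Control replicate 2 it was 0.72 (adjusted p = 0.0422), again by edgeR's quasi-likelihood test. Col24a1, a minor fibrillar chain, had 2.81, 3.01 and 2.11 TPM in Tumor, against 1.70, 1.89 and 1.48 TPM in Control, with no overlap (adjusted p = 0.154). Col11a2 and Col27a1, the other minor chains tested, had log2FC of -0.17 and -0.33 (adjusted p = 0.615 and 0.204). Without Control replicate 2 the value of Col27a1 was -0.09, and that of Col11a2 was -0.02. Over the class, 4 of 10 tested genes fell, none rose in edgeR's test and 6 did not pass, with a median log2FC of -0.62; 6 were lower and 2 higher at an unadjusted p under 0.05.

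Type IV collagen is built from 6 chains in fixed trimers, and no chain passed the test in either direction in edgeR, although 3 were lower and 2 higher at an unadjusted p under 0.05 and DESeq2 called Col4a1 and Col4a2 lower. Col4a1, the alpha 1 chain of the network found in nearly every basement membrane, had 196, 302 and 291 TPM in Tumor, against 488, 329 and 511 TPM in Control. Its partner Col4a2 had 135, 209 and 198 TPM in Tumor, against 289, 214 and 299.7 TPM in Control. All Tumor values lay below all Control values for both, with Control replicate 2 close to Tumor replicate 2. The log2FC were -0.92 ± 0.26 (SE) and -0.73 ± 0.24 (adjusted p = 0.0762 and 0.0960 in edgeR, and 0.00284 and 0.0128 in DESeq2). Without Control replicate 2, Col4a1 had -1.08 (adjusted p = 0.0350) in edgeR.

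Col4a1 and Col4a2 lie head to head on chromosome 8, Col4a1 at chr8:11187756-11312889 on the minus strand and Col4a2 at chr8:11312805-11449287 on the plus strand of GRCm38, and the stretch around their starts is known as a bidirectional promoter. The annotated genes overlap there, and whether reads were counted by strand is not given in the sources used here. Their RefSeq starts are 21 bases apart and their promoter windows, shown with motifs in capitals as above, share 78 bases. The Col4a1 window is chr8:11312777-11313076 on the minus strand and the Col4a2 window chr8:11312555-11312854 on the plus strand.
Col4a1: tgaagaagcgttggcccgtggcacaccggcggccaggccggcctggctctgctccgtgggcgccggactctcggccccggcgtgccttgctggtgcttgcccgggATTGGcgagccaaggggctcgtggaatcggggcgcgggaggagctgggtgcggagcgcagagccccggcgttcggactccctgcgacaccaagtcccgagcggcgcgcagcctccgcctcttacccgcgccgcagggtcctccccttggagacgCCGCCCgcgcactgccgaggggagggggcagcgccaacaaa
Col4a2: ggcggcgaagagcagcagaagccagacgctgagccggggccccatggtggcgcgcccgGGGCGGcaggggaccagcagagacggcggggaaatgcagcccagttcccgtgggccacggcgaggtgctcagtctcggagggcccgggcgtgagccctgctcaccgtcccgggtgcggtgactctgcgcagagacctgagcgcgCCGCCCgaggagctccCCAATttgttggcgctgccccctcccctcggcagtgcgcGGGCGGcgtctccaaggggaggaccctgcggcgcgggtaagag
The first window held 2 matches and the second 4, CCAAT and GC boxes in both. In the libraries, Col4a1 over Col4a2 was lower in Tumor, at 1.45, 1.44 and 1.47, than in Control, at 1.69, 1.54 and 1.70 (exact permutation p of 0.1, adjusted 0.14).

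The chains of the other type IV trimers did not pass the test either, and 3 of the 4 had positive values. Col4a3 and Col4a4, which join Col4a5 in the network of the kidney glomerulus, lie head to head on chromosome 1. Col4a3 had 5.12, 6.75 and 5.05 TPM in Tumor, against 3.05, 4.65 and 3.20 TPM in Control. Col4a4 had 11.7, 18.1 and 14.2 TPM in Tumor, against 8.99, 10.8 and 9.61 TPM in Control. Neither pair of groups overlapped in TPM, that of Col4a4 overlapped in CPM, and the log2FC of 0.48 ± 0.19 (SE) and 0.41 ± 0.18 had adjusted p of 0.153 and 0.169. Without Tumor replicate 1, Col4a4 had 0.57 (adjusted p = 0.0390), without Tumor replicate 2 it had 0.22, and after the length correction 0.115 (adjusted p = 0.726). Col4a3 had 0.22 after the length correction (adjusted p = 0.461). Col4a6, a chain of basement membranes under epithelium and smooth muscle, was scarce, with 0.97, 0.72 and 0.68 TPM in Tumor, against 0.31, 0.44 and 0.31 TPM in Control. Its log2FC of 1.0 ± 0.28 (SE) had an adjusted p of 0.0715. Col4a5, its neighbour on chromosome X at a gap of 1.29 kb, had 19.8, 19.1 and 16.5 TPM in Tumor, against 19.1, 21.2 and 18.6 TPM in Control, with a log2FC of -0.24 ± 0.09 (SE; adjusted p = 0.124).

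Ratios among type IV chains were again formed within each library. Col4a4 over Col4a1 was 0.0599, 0.06 and 0.0488 in Tumor, against 0.0184, 0.0329 and 0.0188 in Control. Col4a5 over Col4a6 was 20.4, 26.6 and 24.3 in Tumor, against 61.6, 48.2 and 60.0 in Control. Col4a3 over Col4a4 overlapped, with means of 0.388 ± 0.043 in Tumor and 0.367 ± 0.054 in Control (SD, n = 3 each). The first and second ratio had the smallest exact permutation p that the design allows, 0.1, adjusted 0.14.

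Types XV and XVIII, collagens of the outer face of basement membranes whose ends release the fragments restin and endostatin, both fell. Col15a1 had 42.6, 41.5 and 33.6 TPM in Tumor, against 73.4, 82.9 and 68.5 TPM in Control. Its log2FC was -1.09 ± 0.11 (SE; adjusted p = 0.0248). Col18a1 had 53.6, 61.1 and 57.4 TPM in Tumor, against 73.1, 67.6 and 79.1 TPM in Control, with a log2FC of -0.51 ± 0.11 (SE; adjusted p = 0.0463). In both, every Tumor library lay below every Control library. The call of Col18a1 ended after the correction for GC content, at -0.26 (adjusted p = 0.109), with limma-trend on log2 TPM, at -0.35 (adjusted p = 0.0644), and without the filter on low counts, at -0.52 (adjusted p = 0.0516). Over the class, 2 of 8 genes fell, none rose in edgeR's test and 6 did not pass, with a median of -0.38; at an unadjusted p under 0.05, 5 were lower and 2 higher.

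Type VI collagen forms beaded filaments next to cells, and of its 6 chains 1 fell and 5 did not pass. Col6a5, one of the chains that can take the place of alpha 3 in the trimer, had 1.68, 1.40 and 1.36 TPM in Tumor, against 4.06, 5.06 and 5.71 TPM in Control. Its fall of -1.90 ± 0.17 (SE) on the log2 scale was the largest of the 40 genes (adjusted p = 0.0192), and the groups did not overlap. Col6a4, another such chain, whose human counterpart is a broken pseudogene, and the neighbour of Col6a5 on chromosome 9 at a gap of 27.9 kb, had 59.5, 115 and 88.7 TPM in Tumor, against 24.1, 60.6 and 23.9 TPM in Control. Tumor replicate 1 lay just under Control replicate 2, and the log2FC of 1.14 ± 0.43 (SE) did not pass in edgeR (adjusted p = 0.141). DESeq2 gave an adjusted p of 0.0155. Without Control replicate 2 edgeR gave 1.71 (adjusted p = 0.0327). Col6a6, the next gene in this cluster, had 4.02, 4.14 and 3.04 TPM in Tumor, against 3.68, 3.78 and 3.94 TPM in Control, and overlapped (adjusted p = 0.466).

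The promoters of Col6a4 and Col6a5 are shown because these neighbours had fold changes of opposite sign. Motifs are in capitals as above, and the windows are chr9:106096642-106096941 for Col6a4 and chr9:105960594-105960893 for Col6a5, both on the minus strand of GRCm38.p6, from RefSeq. The deposited annotation places the starts of these genes elsewhere, at 106098463 for Col6a4 and 105962463 for Col6a5. Both windows lie inside the deposited genes, downstream of those starts, and which start the ovary uses was not tested.
Col6a4: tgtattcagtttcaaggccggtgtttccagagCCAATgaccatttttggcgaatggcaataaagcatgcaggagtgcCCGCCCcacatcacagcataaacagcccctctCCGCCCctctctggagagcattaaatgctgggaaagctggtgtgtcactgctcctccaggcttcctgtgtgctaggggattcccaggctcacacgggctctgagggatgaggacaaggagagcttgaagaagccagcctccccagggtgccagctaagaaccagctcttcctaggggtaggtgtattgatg
Col6a5: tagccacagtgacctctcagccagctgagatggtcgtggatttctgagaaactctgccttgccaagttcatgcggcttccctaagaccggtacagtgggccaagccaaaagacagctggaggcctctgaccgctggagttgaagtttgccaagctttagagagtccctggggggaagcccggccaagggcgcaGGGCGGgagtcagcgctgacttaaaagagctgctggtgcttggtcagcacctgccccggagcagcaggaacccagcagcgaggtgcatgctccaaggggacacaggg
The window of Col6a4 held 3 matches, to CCAAT and GC boxes, and that of Col6a5 held 1, to a GC box.

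The common type VI trimer did not pass the test in any chain. Col6a1 had 278, 371 and 299.0 TPM in Tumor, against 355, 400.1 and 344 TPM in Control. Col6a2 had 196, 297 and 237 TPM in Tumor, against 271, 333 and 253 TPM in Control. Col6a3 had 40.0, 78.0 and 59.1 TPM in Tumor, against 54.0, 82.0 and 54.8 TPM in Control. The groups overlapped in TPM for the 3 chains, and in CPM for all but Col6a1, with log2FC of -0.37 ± 0.14, -0.38 ± 0.18 and -0.23 ± 0.28 (SE; adjusted p = 0.127, 0.201 and 0.618); DESeq2 called Col6a1 lower, at 0.0483. The value of Col6a3 ran between -0.48 and -0.001 as single libraries were left out. Col6a1 over Col6a2 overlapped between the groups, at 1.31 ± 0.092 in Tumor and 1.29 ± 0.081 in Control (SD, n = 3 each), whereas Col6a4 over Col6a3 was 1.487, 1.479 and 1.499 in Tumor, against 0.446, 0.740 and 0.436 in Control. Col6a4 over Col6a5 was 35.4, 82.3 and 65.2 in Tumor, against 5.92, 11.98 and 4.19 in Control. The groups did not overlap in Col6a4 over Col6a3 or in Col6a4 over Col6a5 (exact permutation p of 0.1, adjusted 0.14).

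Among fibril-associated collagens, whose interrupted helices attach to the surface of fibrils, 2 of 7 tested genes fell. Col16a1 had 34.0, 46.3 and 37.5 TPM in Tumor, against 61.7, 52.0 and 63.9 TPM in Control, with a log2FC of -0.76 ± 0.16 (SE; adjusted p = 0.0457). Col20a1 had 11.8, 15.6 and 13.6 TPM in Tumor, against 22.2, 19.5 and 22.6 TPM in Control, with -0.62 ± 0.13 (SE; adjusted p = 0.0451). The groups overlapped for neither gene. Both calls ended after the GC correction (adjusted p = 0.0609 and 0.0608) at -0.50 and -0.45, and that of Col16a1 also after the length correction, at -0.89 (adjusted p = 0.0517), and with limma-trend on log2 TPM, at -0.59 (adjusted p = 0.0508). Col12a1 and Col14a1, the more familiar chains of this group, had log2FC of -0.18 and 0.03 (adjusted p = 0.332 and 0.963), and the value of Col14a1 was -0.40 without Tumor replicate 1. Col9a2, a chain of type IX collagen, had 29.9, 35.6 and 31.7 TPM in Tumor, against 15.1, 31.0 and 11.2 TPM in Control and a log2FC of 0.62 (adjusted p = 0.284), which was 1.15 without Control replicate 2 (adjusted p = 0.0281). Of 4 marker genes of cartilage, where type IX is best known, 2 were tested, Acan and Comp. Acan fell, with 4, 2 and 1 counts in Tumor and 70, 60 and 54 counts in Control. It met the filter on low counts through its Control libraries only, which favours a call in this direction. Comp did not pass in edgeR, at -0.81 (adjusted p = 0.697), with 35, 107 and 90 counts in Tumor and 21, 366 and 20 counts in Control.

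The other chains were low in the ovary or varied between libraries; those named here were chosen after their values were seen. Col28a1, related to type VI by its von Willebrand factor A domains, had 2.74, 1.67 and 1.87 TPM in Tumor, against 0.33, 1.16 and 0.48 TPM in Control. Its log2FC of 1.54 ± 0.47 (SE) was the highest of the 40 genes and had an adjusted p of 0.0869 in edgeR and 0.0382 in DESeq2. Leaving out Control replicate 2, edgeR gave 2.23 (adjusted p = 0.0290). Col13a1, a transmembrane collagen of cell contacts, had 8.84, 5.20 and 3.46 TPM in Tumor, against 3.09, 2.63 and 2.84 TPM in Control, with no overlap, an adjusted p of 0.153 and a log2FC of 0.87 that was 0.44 without Tumor replicate 1. Col23a1, also a transmembrane chain, had 11.96, 4.58 and 3.35 TPM in Tumor, against 3.46, 4.48 and 2.37 TPM in Control, and its log2FC of 0.78 was 0.06 without Tumor replicate 1. That library had the highest adipocyte, oviduct and surface epithelium sums of the Tumor libraries, and their part in this value was not tested. Col7a1 of anchoring fibrils and Col8a1 of the endothelial short-chain network had -0.55 and -0.62, with no overlap in CPM (adjusted p = 0.181 and 0.118). The remaining chains of low or middle level, Col8a2, Col9a3, Col17a1, Col22a1, Col25a1 and Col26a1, had log2FC of 0.19, -0.16, -0.64, 0.48, -0.27 and 0.19 (adjusted p = 0.719, 0.745, 0.380, 0.290, 0.410 and 0.335). As single libraries were left out, Col8a2 ran from -0.115 to 0.42, Col9a3 from -0.38 to -0.03, Col17a1 from -0.87 to -0.17, Col22a1 from 0.25 to 0.70, Col25a1 from -0.32 to -0.18 and Col26a1 from 0.14 to 0.29. Over the 22 tested genes of other types 3 fell, none rose in edgeR's test and 19 did not pass, with a median of -0.19; at an unadjusted p under 0.05, 5 were lower and 3 higher.

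The 9 fallen genes lie on chromosomes 1, 2, 4, 9, 10 and 11. The median GC content of their longest transcript was 56.4%, against 55.1% for the 31 members that did not pass and 49.8% for all tested genes, and the median length was 5595 bases, against 6536 and 3331 bases.

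Genes that make, process and bind collagen were read beside the chains, from 7 lists with 77 genes of which 75 were tested. Of these, 8 fell, or 10.7%, where 3.91% of all tested genes fell, 3 rose, or 4.0%, where 3.80% of all tested genes rose, and 64 did not pass, with a median log2FC of -0.22. None of these 11 calls was left in edgeR without Control replicate 1, Control replicate 3, Tumor replicate 2 or Tumor replicate 3, and all 11 were left with Tumor replicate 1 or Control replicate 2 omitted. In the fits that left none, edgeR called at most 5 genes lower and 1 higher over all genes. It called 1534 lower and 1071 higher without Tumor replicate 1, and 1086 lower and 1188 higher without Control replicate 2. Signs of the 11 fold changes held in each of these fits. Cross-linking enzymes had the lowest list median, -1.08, and all 5 had negative values. Lox is the lysyl oxidase that starts the covalent links between collagen chains. It had 18.7, 16.5 and 14.8 CPM in Tumor, against 119.8, 36.4 and 118 CPM in Control. Its log2FC in edgeR was -2.45 ± 0.47 (SE, adjusted p = 0.0416). Control replicate 2 lay far under the other controls and still above all Tumor libraries. Loxl3 fell by 0.99 on the log2 scale (adjusted p of 0.0480), while Loxl1 and Loxl4 had -1.32 and -1.08 and did not pass (adjusted p = 0.0611 and 0.0790); DESeq2 gave Loxl1 an adjusted p of 0.000340. The call of Lox ended with the length correction, at -2.545 (adjusted p = 0.0548), and without the filter on low counts (adjusted p = 0.0529). That of Loxl3 ended after the length correction, at -1.03 (adjusted p = 0.0609), after the GC correction, at -0.88 (adjusted p = 0.0552), and with limma-trend on log2 TPM, at -0.77 (adjusted p = 0.0526).

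Of the 18 genes that modify and fold the chains inside the cell, 2 fell and 16 did not pass, with a median of -0.44. P4ha2, a subunit of prolyl 4-hydroxylase, which stabilises the helix, had 6.55, 6.77 and 9.43 CPM in Tumor, against 19.6, 20.2 and 17.8 CPM in Control. Its log2FC was -1.34 ± 0.19 (SE; adjusted p = 0.0325). P4ha1, the other main catalytic subunit, had 77.8, 125.7 and 149 CPM in Tumor, against 103, 125.4 and 119 CPM in Control, a log2FC of 0.02 (adjusted p = 0.960). Ppib, a prolyl isomerase, fell by 0.52 (adjusted p of 0.0470), a call that ended with the length correction, at -0.50 (adjusted p = 0.0568), with limma-trend on log2 TPM, at -0.36 (adjusted p = 0.0509), and without the filter (adjusted p = 0.0528). Serpinh1, the collagen chaperone HSP47, had 290.9, 451 and 420.5 CPM in Tumor, against 720.2, 553 and 715 CPM in Control, with no overlap and a log2FC of -0.77 ± 0.20 (SE) that did not pass in edgeR (adjusted p = 0.0609) and passed in DESeq2 (adjusted p = 0.00167). Crtap, a partner of prolyl 3-hydroxylase, had -0.75 (adjusted p = 0.0628 in edgeR and 0.00387 in DESeq2), and Plod1, a lysyl hydroxylase, -0.49 (adjusted p = 0.176).

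Secretion and trimming of procollagen had 1 call each, in lists of 10 and 8 genes, where 7.71% of all tested genes were called in either direction. Of the 10 secretion genes Mia2, a member of the machinery that loads large cargo at the endoplasmic reticulum, fell by 0.50 (adjusted p of 0.0374), and 9 did not pass, among them Sar1b, a small GTPase of transport vesicles, at -0.39 (adjusted p = 0.0590 in edgeR and 0.0171 in DESeq2), Klhl12, a ubiquitin ligase adaptor for large vesicles, at 0.25 (adjusted p = 0.142), and Creb3l1, a transcription factor of secretory cells, at -0.75 (adjusted p = 0.0818 in edgeR and 0.0140 in DESeq2). Of the 8 propeptide genes Adamts14, a protease of the amino end, had 3.85, 4.05 and 4.80 CPM in Tumor, against 11.3, 7.27 and 11.7 CPM in Control. Its log2FC of -1.25 ± 0.25 (SE) had an adjusted p of 0.0411, and after the GC correction it was -1.01 (adjusted p = 0.0561). Pcolce, which speeds up cleavage of the carboxyl end, had 188, 359.6 and 378 CPM in Tumor, against 707, 476 and 679 CPM in Control, and did not pass at -1.01 (adjusted p = 0.0845), whereas DESeq2 gave 0.00376. Bmp1, the protease it helps, had -0.32 (adjusted p = 0.256), and its relative Tll2, below 3 CPM throughout, had -1.44 (adjusted p = 0.138). Adamts3, another amino end protease, had -0.88 (adjusted p = 0.143).

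Small proteoglycans coat fibrils and space them. Of 9 tested, Bgn, the gene of biglycan, fell by 0.97 (adjusted p of 0.0477) and Lum, the gene of lumican, fell by 0.91 (0.0343), none rose in edgeR's test and 7 did not pass, with a list median of 0.01. Lum had 142, 178 and 160.3 CPM in Tumor, against 321, 257 and 323 CPM in Control. Omd, the gene of osteomodulin, had a log2FC of 1.04 (adjusted p = 0.141 in edgeR and 0.0418 in DESeq2), and Fmod, the gene of fibromodulin, 0.32 (adjusted p = 0.204). The call of Bgn ended with the length and the GC correction, at -0.885 and -0.92 (adjusted p = 0.0643 and 0.0534).

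Receptors and basement membrane partners included the genes that rose. Itga2, the integrin alpha 2 chain that binds collagen, had 24.9, 29.95 and 37.1 CPM in Tumor, against 18.32, 17.8 and 18.5 CPM in Control, with a log2FC of 0.75 ± 0.16 (SE; adjusted p = 0.0451). Itga1, the alpha 1 chain with a preference for type IV collagen, had 14.3, 13.9 and 15.9 CPM in Tumor, against 23.8, 19.3 and 24.4 CPM in Control, and missed the threshold at -0.61 (adjusted p = 0.0502). It passed in DESeq2 (adjusted p = 0.00977), after the length and the GC correction (adjusted p = 0.0461 and 0.0445), and without Control replicate 2 (adjusted p = 0.0327). Itga11, Itga10 and the shared chain Itgb1 had -0.78, -0.48 and -0.16 (adjusted p = 0.1002, 0.113 and 0.307); DESeq2 gave Itga11 an adjusted p of 0.0409. Of 16 basement membrane partners, the laminin chains Lama2 and Lamc3 rose, by 0.42 ± 0.07 and 0.70 ± 0.10 (SE; adjusted p = 0.0374 and 0.0328), and 14 did not pass, with a list median of -0.06. Lama1, Lamb2, Nid1 and Hspg2, the genes of laminin alpha 1 and beta 2, nidogen and perlecan, had -0.44, -0.31, -0.24 and -0.21 (adjusted p = 0.207, 0.137, 0.247 and 0.593). The call of Itga2 ended after the length correction, at 0.52 (adjusted p = 0.106), and after the GC correction, at 0.62 (adjusted p = 0.0683), and that of Lama2 after the length correction, at 0.13 (adjusted p = 0.321).

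**Figure D5:**
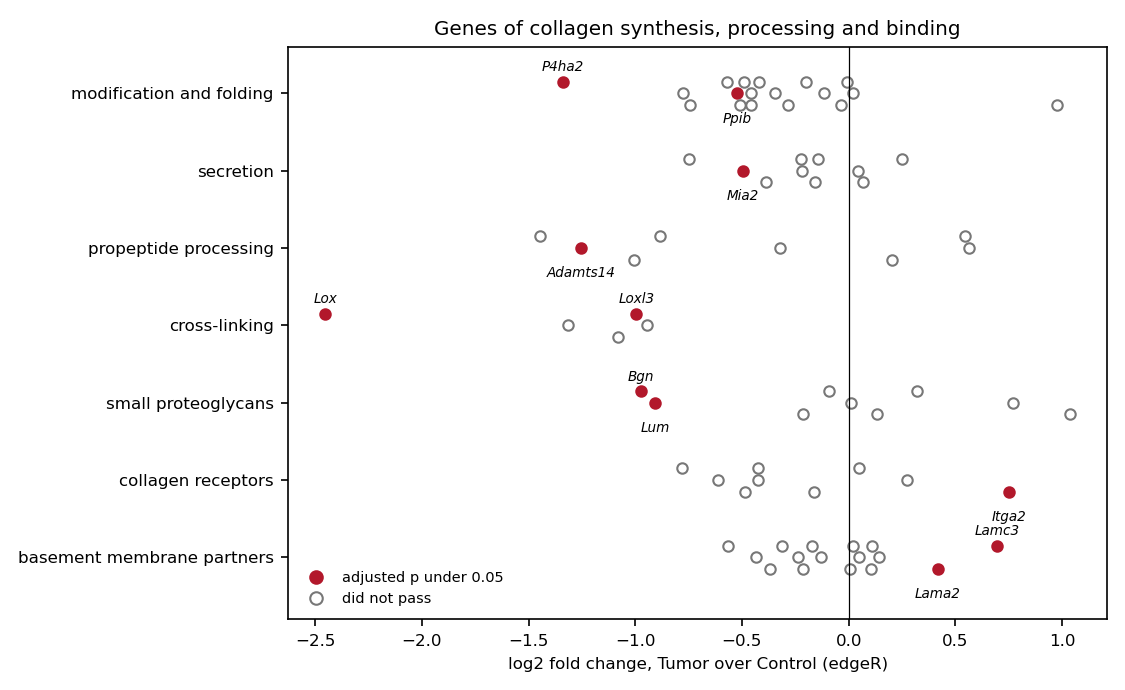
Log2 fold change of Tumor over Control, by edgeR, for the 75 tested genes of 7 lists of collagen synthesis, processing and binding. Red filled and named points are the 11 genes with an adjusted p under 0.05; the 5 cross-linking genes lie at -0.94 or lower, and Itga2, Lama2 and Lamc3 lie above 0.

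The authors' deposited table gave 12 collagen chain genes lower and 2 higher in Tumor at a q-value under 0.05, beside 1411 genes lower and 1422 higher in all. In the authors' deposited table Col6a5 had a log2FC of -1.89 and Col1a1 of -1.17, with q of 4.17e-15 and 1.59e-05. Col4a1, Col4a2 and Col5a1, which did not pass in edgeR, had q of 0.00421, 0.0182 and 0.0105 in the authors' deposited table, and Col1a2 had 0.0700. The 2 genes above 0 in the authors' deposited table were Col6a4, with q of 0.0199, and Col28a1, with 0.0414.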

How the data were processed

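Ovary RNA of 3 Tumor and 3 Control mice had been sequenced as single-end reads of 50 bases, per the labels' protocols; RNA selection and strand are not stated in them. HISAT2 2.0.4, Bowtie2 2.2.5, RSEM 1.2.12 and GRCm38.p6 were used, per the submitters' processing notes, with no role stated. Per the file headers, the deposited gene table gives estimated counts, of which 39.2% of those above 0 are not whole, and TPM. The authors' deposited comparison holds log2 fold changes and q-values (adjusted p-values), per the file headers. A further 36 per-sample columns were not used.

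Counts were rounded, filtered with filterByExpr of edgeR 4.0.16 (R 4.3.3), scaled by TMM factors (0.962 to 1.054) and compared with edgeR's quasi-likelihood test (robust, group as the only term), Benjamini-Hochberg adjusted over all genes tested at 0.05. The SE is the absolute log2 fold change over the square root of F. No pair of libraries agreed within sampling noise (chi-square per degree of freedom of at least 13.0). Depth was about equal between libraries, and limits for a count of 0 (3 counts) cover counting error only. Alternatives were DESeq2 1.42.0, limma-trend 3.58.1 on log2 TPM plus a pseudocount of 1, no filter, each library left out, the replicate number as a block, and offsets removing each library's trend on gene length or GC content (lowess span 0.3), known for 97.4% of genes and all 44 collagen chain genes. Scripts were tested on simulated data. Coordinates are those of the deposited annotation, and strands, lengths and GC come from a GENCODE annotation of the same build; all 44 genes overlap their RefSeq position. The members, partner lists and cell type lists were chosen with earlier results of these data known. Values per library are given for collagen chain genes that passed, the 3 most abundant chains of each class and the chains that share a trimer or promoter with these; those of Col9a2, Col11a1, Col13a1, Col23a1, Col24a1 and Col28a1 were added after their values were seen. From each partner list, up to 4 genes with the smallest p and a fixed panel are named.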

Additional observations from a re-analysis of the deposited data

How the results depend on the processing

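With single libraries left out, the number of lower collagen chain genes ran from 0 to 10 and that of higher ones from 0 to 4. It was 5 lower after the GC content correction, where 437 of all 15787 genes were lower and 341 higher. With DESeq2 it was 14 lower and 2 higher, where 1502 of all 15764 genes were lower and 1555 higher. The labels do not state whether the replicate numbers pair the samples. Deviations of same-numbered libraries correlated at 0.24, -0.21 and 0.53 for numbers 1, 2 and 3. With 3 libraries in each group these values cannot decide whether the samples are paired. With the replicate number as a block, edgeR called 0 collagen genes in either direction, with 15 lower and 7 higher at an unadjusted p under 0.05. The median log2FC was -0.48 with the gene length correction and -0.26 without it. The GC content correction moved the fallen genes the other way, each to a smaller fall. Col1a1 went from -1.18 to -0.96 and Col18a1 from -0.51 to -0.26, while Col5a2 and Col6a5 hardly moved. The cause of these moves was not tested. Over all genes, edgeR called none without Control replicate 1 or Tumor replicate 3 and none with the block (3137, 3761 and 4233 at an unadjusted p under 0.05), 5 lower and none higher without Control replicate 3, 2 lower and 1 higher without Tumor replicate 2, 1086 lower and 1188 higher without Control replicate 2, and 1534 lower and 1071 higher without Tumor replicate 1.

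Values near 0 changed sign. With single libraries left out, Col14a1 (0.03) ran from -0.399 to 0.215, Col8a2 (0.19) from -0.115 to 0.421, P4ha1 (0.02) from -0.185 to 0.249 and Hspg2 (-0.21) from -0.352 to 0.007. With the block, Col14a1 had -0.044 and P4ha1 -0.023, and with the length correction they had -0.164 and -0.009. With the GC correction, Col9a3 had 0.078, Col11a2 0.106, Hspg2 0.039 and P4ha1 -0.074. With limma-trend on log2 TPM, Col11a2 had 0.017 and Col12a1 0.005. Of all single gene values under these settings, 712 kept direction and side of the threshold, 123 lost a call, 36 gained one and 17 changed sign. Most of the 712 belong to genes that had no call to lose. Only the 9 collagen chain genes and 11 partner genes called in the main fit could lose one. None of their calls was left without Control replicate 1, Control replicate 3, Tumor replicate 2 or Tumor replicate 3, or with the block. Depth left 4 collagen genes untested.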

Other observations

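The deposited transcript values allow a look at which transcript of a collagen gene dominated. The genes named here were chosen after their values were seen. RSEM, named in the submitters' processing notes, splits reads among the transcripts of a gene. The top transcript of Col5a3 took 0% of the gene in Control replicate 3 and 93.2% to 97.1% in the other 5 libraries. For Col6a5, the gene with the largest fall, the top transcript took 7.52% in Control replicate 2 and 100% in the other 5 libraries. Of the 44 genes, 13 have 1 transcript, and the groups overlapped for 25, were higher in Tumor for 3 and lower for 3. The same count was not made over all genes, so whether these numbers are unusual is not known. The top transcript of Col6a3 took 73.5% to 74.1% of the gene in Tumor and 82.4% to 91.3% in Control, although the gene itself did not pass the test. That of Col27a1 took 75.7% to 85.3% in Tumor and 56.7% to 63.0% in Control, and that of Col20a1 75.7% to 77.6% in Tumor and 50.7% to 65.0% in Control. These shares have no test, and whether they reflect the split or the tissue was not tested.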
